A study of Rattus norvegicus with 24 samples.

Results

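The 10 genes described here encode regulators of mitochondrial biogenesis in muscle: the PGC-1 coactivators Ppargc1a and Ppargc1b, the muscle regulator Perm1, the estrogen-related receptors Esrra, Esrrb and Esrrg, the nuclear factor Nrf1, the mitochondrial factor Tfam, and the fatty acid receptors Ppara and Ppard. They were chosen by symbol among the 13458 symbols of the expression table, and each had 1 row in it. Perm1 was included partly because of its low level in disused limbs, so its values are a description, it has no test, and it is left out of every count of called genes. The other 9 were tested.

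The muscle sequenced was the tibialis anterior (TA), the dorsiflexor of the lower leg, taken from aged male rats of 23 ± 1 months. Tetrodotoxin (TTX), a blocker of voltage-gated sodium channels, was delivered to the left common peroneal nerve through a cuff fed by an osmotic pump, which silenced the muscle without cutting the nerve. The atrophy group comprised the left limbs of 3 animals after a first TTX period of 6 to 7 days. The recovery group comprised the left limbs of 3 other animals that had the same first period and then 9 days without TTX. The repeated atrophy group comprised the left limbs of 3 further animals that had both of these and then a second TTX period of 5 to 6 days. Control was the 9 right limbs of these animals, which received no TTX themselves but belonged to TTX-treated animals. Sham left and sham right were the limbs of 3 animals with the same surgery and saline in place of TTX, with 1 animal at each of the 3 times. The 24 libraries thus came from 12 animals, and left and right limbs of 1 animal were not independent.

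PGC-1 proteins bind no DNA themselves. They dock on transcription factors, among them the estrogen-related receptors (ERRs), NRF1 and the PPARs, and raise transcription of nuclear genes for respiration and fat oxidation. NRF1 acts on nuclear genes for the respiratory chain and for TFAM, which enters the mitochondrion and packages and transcribes its DNA. PERM1 is a striated muscle protein that is induced by PGC-1 and ERRs and raises a part of the same program, and in skeletal muscle contractile activity is a known inducer of PGC-1α.

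Expression is given in CPM, the reads of a gene scaled to a library total of 1000000. The inferred depth was 18.9 to 30.9 reads per library in units of 1000000 (median 26.1), so that 1 read was worth 0.0324 to 0.0529 CPM. The whole transcriptome was not centred: over the 14031 rows tested, the median log2 difference from control was 0.22 in atrophy, 0.02 in recovery and 0.20 in repeated atrophy, and rescaling by trimmed mean of M values (TMM) factors brought it to 0.00, 0.01 and -0.01. The tissue was muscle by its markers, with 8 muscle fibre genes summing to 165000 to 223000 CPM in control. In atrophy that sum ranged between 84200 and 176000, and in recovery between 175000 and 194000. For repeated atrophy it ranged between 110000 and 138000, below all 9 control limbs, and sham limbs held 131000 to 205000. The sum of 5 slow fibre genes was also below all 9 in repeated atrophy (825 to 1510 against 1910 to 4200). By gene, 0 of these 5 were called higher there and 2 lower, with a median log2 difference of -0.20. Of the 8 muscle fibre genes 1 was called higher and 1 lower there, with a median of -0.72. Of all rows 28.1% were higher and 6.24% lower, so the sums do not stand for each gene. In recovery the sum of 5 fibroblast genes was above all 9 (1020 to 1920 against 194 to 528), with 4 of 5 called higher, and 3 of 5 macrophage genes were called higher. Of all rows 4.4% were higher there. The macrophage sum overlapped control (72.1 to 153 against 27.5 to 92.7). The sum of 4 satellite cell genes was above all 9 both in recovery (14.4 to 28.4) and in repeated atrophy (39.5 to 69.6 against 6.17 to 14.3). Limbs outside these groups reached such levels too, with satellite cell sums of 13.2 to 91.2 in atrophy, 8.59 to 74.7 in sham left and 4.18 to 58.1 in sham right. Fewer cells of a type and less RNA per cell cannot be told apart in such bulk samples, and the part of these shifts in the results below was not tested.

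Repeated atrophy was the condition with the most called members. Ppargc1a, Esrra and Ppard fell and Tfam rose, so 4 of 9 tested members were called (a fold change of 1.2 or more and an adjusted p up to 0.05 by limma), where 34.3% of all rows were. By direction, 3 of 9 members were lower where 6.24% of all rows were, and 1 of 9 was higher where 28.1% were. In atrophy 2 of 9 members were called, Esrra lower and Tfam higher, against 22.6% of all rows (2.33% lower, 20.3% higher). In recovery 1 of 9 was called, Ppard lower, against 7.73% of all rows (3.33% lower, 4.4% higher). After TMM rescaling 1, 1 and 4 of 9 were called in atrophy, recovery and repeated atrophy, where 9.68%, 12.1% and 25.2% of all rows were. With the animal as a block, which compares each left limb with the right limb of the same animal, the counts were 0 in atrophy, 0 in recovery and 3 in repeated atrophy, where Ppargc1a lost its call, and the backgrounds were 0%, 0.0641% and 27.1% of all rows. With the animal as a random effect in place of a fixed block the counts were 2, 1 and 4, against 22.6%, 8.37% and 35.9% of all rows. All 3 comparisons used the same 9 control limbs.

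**Figure D1:**
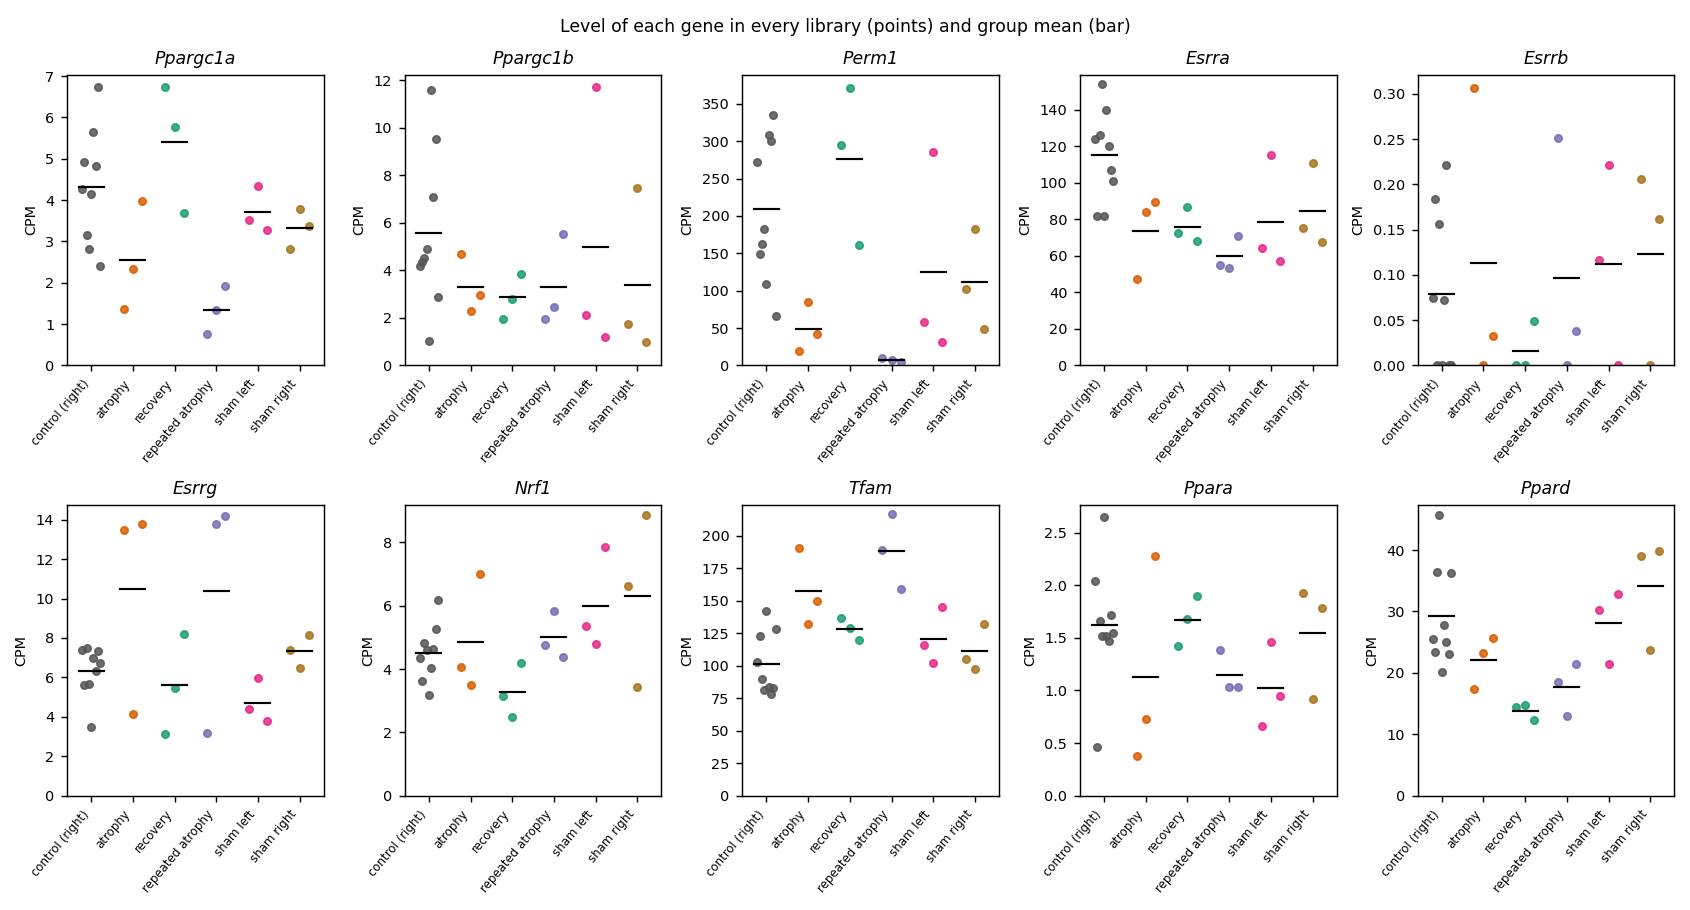
Level of each of the 10 genes (CPM, linear axis from 0, a separate scale per gene) in every library (points) with the group mean (bar), for control (9 right limbs) and the 3 limbs of each other group. The repeated atrophy limbs lay below every control limb for Perm1, Ppargc1a and Esrra and above every control limb for Tfam, and the recovery limbs lay below every control limb for Ppard. Of all rows, 3.87% had the first pattern, 16.5% the second and 4.84% the third, and Perm1 was chosen partly on these values.

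Per kilobase of transcript, which allows levels of different genes to be compared, the control limbs held levels of very different size. Tfam was at 69.7 ± 16.5, Perm1 at 54.2 ± 25.1 and Esrra at 53.4 ± 11.4 CPM per kb (mean ± SD, n = 9), and neighbours among these differed by less than their SDs. Ppard followed at 8.97 ± 2.56. Nrf1 (2.42 ± 0.475), Esrrg (1.99 ± 0.401), Ppargc1a (1.77 ± 0.573) and Ppargc1b (1.76 ± 1.05) came next, and neighbours among these differed by less than the larger of their SDs. Ppara, at 0.802 ± 0.284, was below Ppargc1b by less than the SD of the latter, and Esrrb was at 0.0604 ± 0.0677. The order of the highest members was different in repeated atrophy: Tfam stood at 129 ± 20.0, Esrra at 27.7 ± 4.43 and Perm1 at 1.84 ± 0.685 CPM per kb (n = 3).

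Perm1 showed the widest range of the 9 genes detected in all 24 libraries. The control limbs ran from 65.9 to 335 CPM with a median of 183. The repeated atrophy limbs had 9.76, 7.06 and 4.47 CPM in animals 1, 2 and 3, all below every control limb, while their own right limbs were at 149, 162 and 183. These levels rest on about 233, 199 and 117 reads, so they were well above the counting floor. The atrophy limbs had 19.3, 85.2 and 42.2 CPM, of which animals 1 and 3 were below every control limb. The right limbs of those animals were at 272, 109 and 65.9, so the left limb was lower in each of the 3, but with left over right ratios of 0.0709, 0.784 and 0.639. The recovery limbs had 295, 371 and 161 CPM and overlapped control.

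On the log2(CPM + 1) scale Perm1 differed from control by -2.15 in atrophy, by 0.48 in recovery and by -4.59 in repeated atrophy. No interval is read for Perm1, since its choice used these values. As fold sizes, Perm1 was 4.43-fold lower in atrophy and 24-fold lower in repeated atrophy. The log2 difference in atrophy depended on the animals, at -1.55 without animal 1 and -2.76 without animal 2. Recovery was 6.19-fold above atrophy, and repeated atrophy was 33.5-fold below recovery and 5.42-fold below first atrophy. As differences of within-animal differences these sizes were 2.47, 17.5 and 7.09. The pseudocount bears on the size in repeated atrophy, where the log2 difference of Perm1 from control was -4.76 with 0.1 CPM added and -3.54 with 10. The direction in recovery depended on the control used: within animals the left limb differed by -0.27 from the right. Within animals the mean difference was -1.58 ± 1.89 (SD, n = 3) in atrophy and -4.40 ± 0.64 in repeated atrophy. Sham limbs were variable too, at 57.8, 285 and 31.4 CPM on the left and 102, 183 and 48.7 on the right for the animals of the Atrophy, Recovery and Repeated Atrophy times. Of all rows, 3.87% had all 3 repeated atrophy limbs below all 9 control limbs. Nothing is read from that for Perm1, whose choice used these values.

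**Figure D2:**
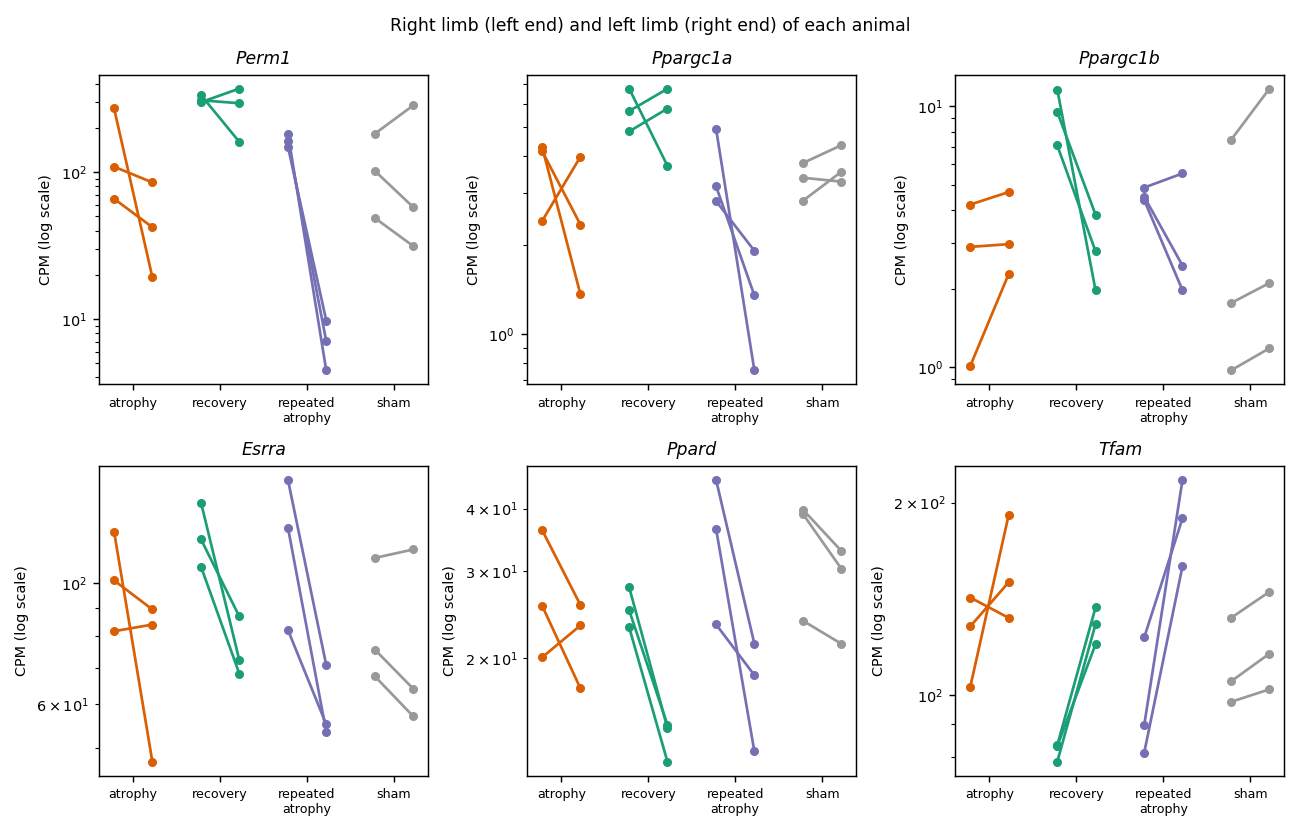
CPM (log axis, a separate scale per gene) of the right limb (left end of each line) and the left limb (right end) of each animal for 6 genes, with 3 animals per arm. All 3 lines of the repeated atrophy arm descend for Perm1, Ppargc1a, Esrra and Ppard and ascend for Tfam, while for Ppargc1b all 3 lines of the recovery arm descend and those of the atrophy arm ascend.

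Upstream sequences of Perm1 and Ppargc1a are shown because these are the regulators with the lowest values relative to control in repeated atrophy, and because ERRs and CREB are known to act on such genes. They are the 250 bases before the RefSeq transcript start in GRCr8, at chr5:172081999-172082248 and chr14:63634058-63634307, both on the plus strand. Capitals mark the motif found by a search of both strands. In Perm1 they mark AAGGTCA, the core that ERRs bind, read as TGACCTT on the printed strand and beginning 200 bases before the start. In Ppargc1a they mark TGACGTCA, the cyclic AMP response element bound by CREB, beginning 181 bases before the start.
Perm1: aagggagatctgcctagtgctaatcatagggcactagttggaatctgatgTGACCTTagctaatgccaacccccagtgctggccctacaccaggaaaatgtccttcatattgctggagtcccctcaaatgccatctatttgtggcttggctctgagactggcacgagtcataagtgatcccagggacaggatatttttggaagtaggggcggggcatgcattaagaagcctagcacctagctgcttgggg
Ppargc1a: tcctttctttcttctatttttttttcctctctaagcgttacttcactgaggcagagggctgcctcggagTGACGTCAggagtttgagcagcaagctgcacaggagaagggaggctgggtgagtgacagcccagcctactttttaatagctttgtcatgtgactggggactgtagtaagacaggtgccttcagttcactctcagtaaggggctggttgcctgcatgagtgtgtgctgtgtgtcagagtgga
The windows searched were longer than the printed sequences, with 250 bases before and 50 after the start. AAGGTCA was present in 3.99% of the 33469 RefSeq windows searched and TGACGTCA in 1.59%. The longer ERR element TCAAGGTCA (0.388% of windows) and the consensus of MEF2, a muscle activity factor (2.96%), were found in none of the 12 windows of the 9 members that had one. Among the other members, the NRF1 element GCGCATGCG (1.35% of windows) matched in Ppara, and AGGTCA (14.1%), contained in the match of Perm1, matched in Esrrg. The NRF1 core TGCGCA (6.14%) matched in Esrra, and CGTCA (18.2%), contained on both strands in the match of Ppargc1a, matched in Esrrb. These are matches of letters, and no binding was measured here. Ppard had no window.

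Ppargc1a encodes PGC-1α, the inducible member of the coactivator family. Control limbs ran from 2.41 to 6.74 CPM with a median of 4.27. Repeated atrophy limbs were at 0.754, 1.35 and 1.91 CPM, about 18, 38 and 50 reads, and all were below every control limb (3.87% of all rows had that pattern). Atrophy limbs were at 1.36, 2.34 and 3.97 CPM, so that 2 of 3 were below the control range. Recovery limbs were at 6.73, 5.77 and 3.70 CPM, within the control range. Ppargc1a fell by 1.17 ± 0.27 (SE) on the log2 scale in repeated atrophy (adjusted p = 0.0029), a 2.26-fold lower level, and by 1.43 after TMM rescaling (adjusted p = 0.0017). At these low levels the size depends on the pseudocount: the group means were 4.32 ± 1.40 and 1.34 ± 0.577 CPM, and the log2 difference of Ppargc1a was -1.64 with 0.1 CPM added (adjusted p = 0.0020) and -0.33 with 10 (adjusted p = 0.0067). Within animals the left limb was lower in 3 of 3 by a mean of -0.99, and the adjusted p with the animal as a block was 0.068. The call was kept with the animals' own right limbs as control and with the block after TMM rescaling. The difference in atrophy was -0.60 ± 0.27 (adjusted p = 0.11), although without atrophy animal 3 it was -0.95 (adjusted p = 0.039). The difference in recovery was 0.28 (adjusted p = 0.55) and its sign turned within animals, to -0.10.

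Set against each other, the treated groups differed for Ppargc1a in 1 of 3 contrasts. It fell by 1.45 ± 0.33 from recovery to repeated atrophy (adjusted p = 0.0050), the only one of 9 members called there, against 27.2% of all rows, and also after TMM rescaling, against 21.7%. As a difference of within-animal differences this was -0.89 (adjusted p = 0.36), and it was -1.98 and -0.44 with the 2 other pseudocounts. Recovery against atrophy gave 0.88 ± 0.33 (adjusted p = 0.068) and 1.13 after TMM rescaling (adjusted p = 0.0498). In that contrast 0 of 9 members were called by limma against 17.9% of all rows, with 2 at an unadjusted p under 0.05, and 1, Ppargc1a, after TMM rescaling against 10.7% of all rows. Repeated against first atrophy gave -0.57 (adjusted p = 0.91), where 0 of 9 members and 0.0356% of all rows were called and 0 members had an unadjusted p under 0.05. The 95% interval of Ppargc1a for that difference, -1.26 to 0.12, still held differences as large as the one between atrophy and control.

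Ppargc1b encodes PGC-1β, the close relative of PGC-1α. It was called in none of the comparisons with control, at -0.47 in atrophy (adjusted p = 0.44), -0.62 in recovery (adjusted p = 0.37) and -0.52 in repeated atrophy (adjusted p = 0.37). Control limbs ran from 1.01 to 11.6 CPM with a median of 4.50, the widest relative spread of the tested members in control apart from Esrrb. Part of that spread followed the time of the animal. In the right limbs of the 4 animals of the Recovery time, sham included, Ppargc1b was at 7.08 to 11.6 CPM, and in the other 8 right limbs at 0.971 to 4.88, so the ranges did not overlap. This was noticed after the values were seen and has no test, 1.45% of all rows had the same pattern, and with 1 sham animal per time it cannot be told apart from differences between animals. The left sham limb of the Recovery time was also high, at 11.7 CPM against 2.10 and 1.18 at the other times. Perm1 was at 183 to 335 CPM in the right limbs of the 4 Recovery time animals and at 48.7 to 272 in the other 8, which overlap.

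Against their own right limbs, the recovery limbs were low in Ppargc1b. They were at 1.97, 2.78 and 3.84 CPM on the left and 11.6, 7.08 and 9.52 on the right, lower in 3 of 3 animals by a mean of -1.43 ± 0.56 (SD), with an adjusted p of 0.092 with the animal as a block. In atrophy the left limbs held 4.69, 2.27 and 2.96 CPM against 4.2, 1.01 and 2.89 on the right, higher in 3 of 3 by 0.29 ± 0.36. The left limbs of the 3 sham animals, which had no TTX, were higher in 3 of 3 as well, by 0.30 ± 0.25. In repeated atrophy the left limbs held 1.97, 2.45 and 5.53 CPM against 4.37, 4.50 and 4.88, lower in 2 of 3. Between the left limbs of recovery and atrophy themselves Ppargc1b differed by -0.14 (adjusted p = 0.87), or 0.11 after TMM rescaling (adjusted p = 0.93).

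**Figure D3:**
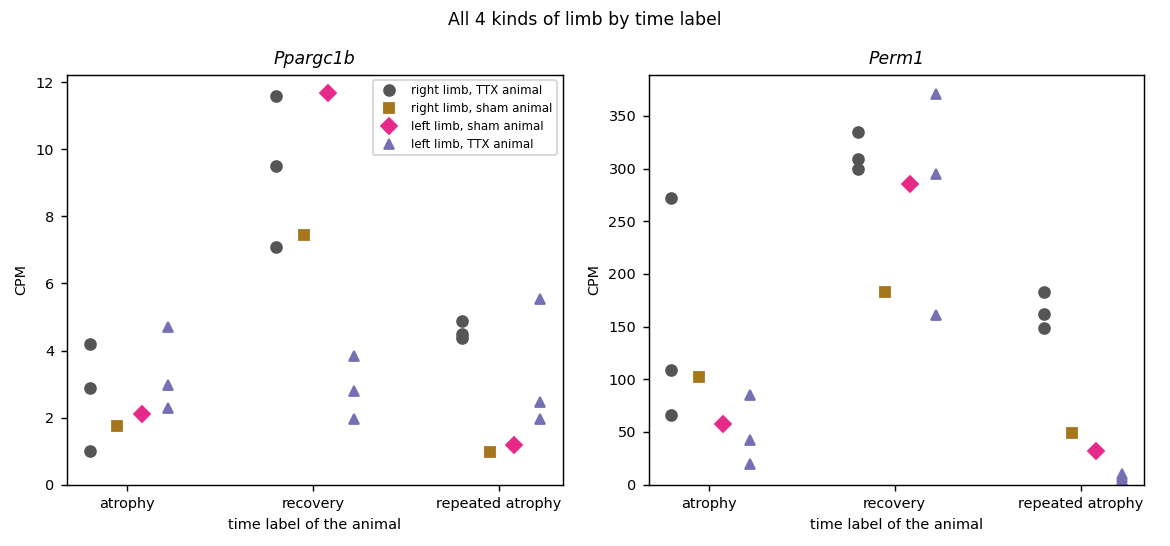
CPM (linear axis from 0) of Ppargc1b and Perm1 by the time label of the animal, with separate marks for right and left limbs of TTX and sham animals. The 4 right limbs of the Recovery time lie at 7.08 to 11.6 CPM for Ppargc1b, above the other 8, while for Perm1 the corresponding ranges overlap.

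Esrra encodes ERRα, the main DNA-binding partner of PGC-1α in this program, and its gene is itself one of its targets. Control limbs ran from 81.6 to 154 CPM with a median of 120. Repeated atrophy limbs were at 55.2, 53.5 and 70.8 CPM, below every control limb, a pattern that 3.87% of all rows had. Esrra fell by 0.91 ± 0.20 in repeated atrophy (adjusted p = 0.0025), 1.88-fold, and within animals it was lower in 3 of 3 by -0.96 (adjusted p = 0.019 with the block). Atrophy limbs were at 47.2, 83.9 and 89.4 CPM, of which animal 1 alone was below the control range. Esrra fell by 0.66 ± 0.20 there (adjusted p = 0.028), a call that was lost with the block (-0.50, adjusted p = 0.30), with 12 right limbs as control (-0.55, adjusted p = 0.085), with only the groups compared in the fit (-0.66, adjusted p = 0.054), without atrophy animal 1 (-0.36, adjusted p = 0.36) and by a small margin without each of recovery animals 1 and 2 and repeated atrophy animal 2 (adjusted p = 0.058, 0.051 and 0.052). Recovery limbs were at 72.3, 86.8 and 68.3 CPM, and the difference of -0.57 from control had an adjusted p of 0.089 (-0.63 and 0.050 without atrophy animal 2), although the left limb was lower than the right in 3 of 3 animals by -0.68 ± 0.25. Esrra thus gave negative values in all 3 groups, and repeated atrophy against recovery differed by -0.34 (adjusted p = 0.33). Sham limbs held 57.1 to 115 CPM on the left and 67.5 to 111 on the right, reaching below the control range without TTX.

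The other receptors of the family did not pass the test. Esrrg encodes ERRγ, abundant in oxidative muscle, and its control limbs ran from 3.50 to 7.51 CPM with a median of 6.74. Atrophy limbs were at 13.5, 4.15 and 13.8 CPM and repeated atrophy limbs at 3.18, 13.8 and 14.2, so that in each group 2 of 3 limbs were above every control limb and 1 was not. The differences were 0.52 (adjusted p = 0.34) and 0.44 (adjusted p = 0.41). Without repeated atrophy animal 1 the latter was 1.04 (adjusted p = 0.039). Recovery limbs were at 3.14, 5.48 and 8.22 CPM, on both sides of the control range (-0.20, adjusted p = 0.78). Within animals Esrrg was higher on the left in 3 of 3 in atrophy, by 0.64 ± 0.40 (SD), and in 2 of 3 in repeated atrophy. It was lower on the left in 2 of 3 in recovery and in 3 of 3 sham animals, in the latter by -0.56 ± 0.43. Esrrb encodes ERRβ and was at most 0.306 CPM, about 9 reads, and above 0 in 14 of 24 libraries, so a change in it was not detectable at this depth.

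Nrf1 encodes nuclear respiratory factor 1. Control limbs ran from 3.18 to 6.19 CPM with a median of 4.60. In atrophy the 3 limbs had 4.08, 3.50 and 6.99 CPM, with recovery limbs at 3.14, 2.50 and 4.18, and repeated atrophy limbs at 4.77, 5.85 and 4.39. All groups overlapped control. The differences of 0.06, -0.37 and 0.13 had adjusted p of 0.88, 0.27 and 0.68, and the signs in atrophy and repeated atrophy turned after TMM rescaling. In recovery the left limb was below the right in 3 of 3 animals, by -0.41 ± 0.24 (SD).

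Tfam encodes mitochondrial transcription factor A, and in repeated atrophy it rose where Ppargc1a fell. Control limbs ran from 78.6 to 142 CPM with a median of 89.7. Repeated atrophy limbs were at 189, 217 and 159 CPM, above every control limb, a pattern that 16.5% of all rows had. Tfam rose by 0.91 ± 0.18 in repeated atrophy (adjusted p = 0.0012), 1.88-fold, by 0.53 after TMM rescaling (adjusted p = 0.023), and within animals in 3 of 3 by 0.95 (adjusted p = 0.0078 with the block). First atrophy gave 191, 132 and 150 CPM, 2 of 3 above the control range, and Tfam rose by 0.65 ± 0.18 (adjusted p = 0.019). That call was lost after TMM rescaling (0.28, adjusted p = 0.28), after quantile normalization (0.26, adjusted p = 0.22), with the block (0.33, adjusted p = 0.36) and without atrophy animal 1 (0.51, adjusted p = 0.21). Recovery limbs were at 137, 129 and 120 CPM against 83.4, 78.6 and 83.1 on the right, higher in 3 of 3 animals by 0.65 ± 0.10. These left limbs lay within the control range. The right limbs of the 4 Recovery time animals, sham included, were at 85.6 ± 8.2 CPM (SD). The other 8 right limbs were at 113 ± 21.7, and the 2 ranges overlapped. The difference from pooled control was 0.38 (adjusted p = 0.21), the adjusted p with the block was 0.16, and Tfam was called after quantile normalization (0.43, adjusted p = 0.042). Repeated atrophy against recovery gave 0.53 (adjusted p = 0.085, and 0.035 with only the groups compared in the fit). Sham left limbs were higher than sham right limbs in 3 of 3 animals too, by 0.11 ± 0.04.

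Ppard encodes PPARδ, the fatty acid receptor most linked to oxidative muscle. Control limbs ran from 20.1 to 45.7 CPM with a median of 25.5. Recovery limbs were at 14.5, 14.7 and 12.4 CPM, below every control limb, where 4.84% of all rows had that pattern. Ppard fell by 0.98 ± 0.22 in recovery (adjusted p = 0.013), 1.98-fold, and within animals it was lower in 3 of 3 by -0.82 ± 0.08 (adjusted p = 0.15 with the block). The call was also lost without recovery animal 1 (adjusted p = 0.078) or 3 (adjusted p = 0.055). Repeated atrophy limbs were at 18.5, 13.0 and 21.4 CPM, and Ppard fell by 0.68 ± 0.22 (adjusted p = 0.021, and 0.014 with the block), a call lost without repeated atrophy animal 2 (-0.44, adjusted p = 0.23). Atrophy limbs were at 17.4, 23.3 and 25.6 CPM (-0.36, adjusted p = 0.24), and the Ppard difference there depended on scaling, at -0.71 after TMM rescaling (adjusted p = 0.052) and -0.74, a call, after quantile normalization (adjusted p = 0.045). Left limbs were lower in the 3 sham animals as well, by -0.26 ± 0.11. Ppara encodes PPARα and was low, with control limbs from 0.460 to 2.65 CPM, atrophy limbs at 0.374, 0.730 and 2.28, recovery limbs at 1.42, 1.68 and 1.90, and repeated atrophy limbs at 1.38, 1.03 and 1.03. It was not called in any group, at -0.37, 0.05 and -0.26 (adjusted p = 0.27, 0.92 and 0.44).

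**Figure D4:**
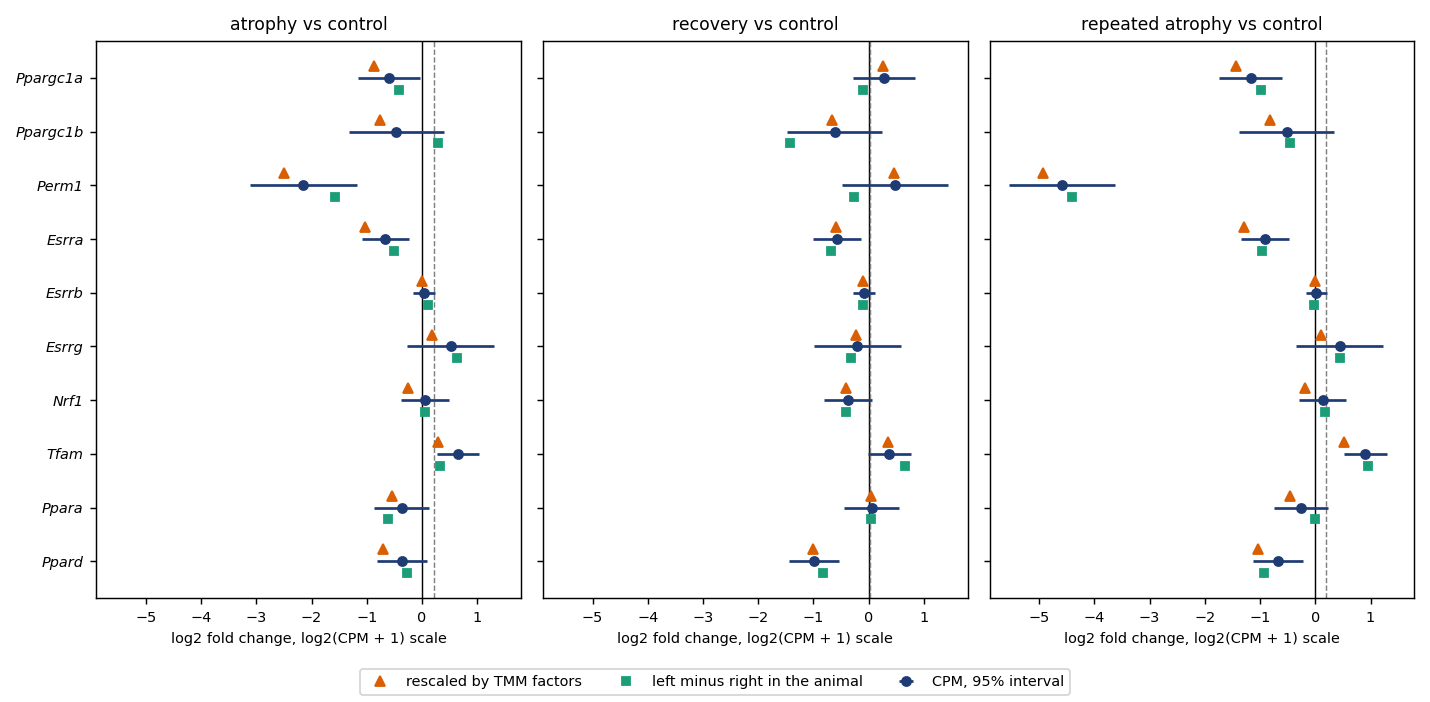
Log2 fold change against control on the log2(CPM + 1) scale for the 10 genes in atrophy, recovery and repeated atrophy: circles with 95% intervals are the comparison with 9 right limbs, triangles the same after TMM rescaling, squares the mean left minus right difference, and the dashed line the median of all 14031 rows. Perm1 reaches -4.59 in repeated atrophy, and the intervals drawn for it are no test, since its choice used these values. Tfam at 0.91 is the 1 tested member above the dashed line there by more than its interval.

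In sham animals, 0 of 9 members were called between left limbs and control, where 0% of 13822 rows were, although 1904 rows had an unadjusted p under 0.05 by limma. Esrra was the 1 member among these rows, at -0.58 (unadjusted p = 0.0239). Without the sham animal of the Recovery time 118 rows and 0 members were called. Between sham left and sham right 0 of 9 were called, where 0% of 13483 rows were and 576 rows and 0 members had an unadjusted p under 0.05. Control and sham right limbs also gave 0 of 9 against 0% of 13848 rows, with 1132 rows and 0 members at an unadjusted p under 0.05, and 117 rows and 0 members called without the sham animal of the Recovery time.

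Ratios within a library, which do not depend on its scaling apart from the pseudocount, were compared for related members. Of 12 ratio differences from control, 0 had an adjusted p of at most 0.05 by exact two-sided permutation over 220 arrangements, where the smallest p is 0.0045. A single ratio at that p adjusts to 0.055 over 12 tests, so none could pass alone. The count of 0 therefore does not show that the ratios were unchanged. The permutation also took the limbs of 1 animal as independent. The difference for Esrrg over Esrra was 1.35 (log2) in repeated atrophy (exact permutation p = 0.018, adjusted 0.073) and 1.18 in atrophy (exact permutation p = 0.032, adjusted 0.082). The 3 differences for Esrrb over Esrra are not ratios of 2 measured genes: with Esrrb far below the pseudocount its own term differed from control by only 0.04, -0.08 and 0.02 in atrophy, recovery and repeated atrophy, so the values of 0.70, 0.49 and 0.93 restate those of Esrra with the sign turned and depend on scaling as Esrra does. Ppard over Ppara gave, in recovery, -1.04 (exact permutation p = 0.018, adjusted 0.073). Ppargc1b over Ppargc1a differed by -0.90 in recovery (exact permutation p = 0.073, adjusted 0.12) and by 0.66 in repeated atrophy (exact permutation p = 0.14, adjusted 0.21). The other 4 differences had an unadjusted exact permutation p of at least 0.19. The count was sensitive to this limit. Without both limbs of atrophy animal 2, 6 of the 12 passed, 2 of them for Esrrb over Esrra, at adjusted exact permutation p of 0.036 to 0.048.

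Genes that act with these regulators were described in 6 lists. After TMM rescaling the shares of all rows called higher and lower were 4.73% and 4.95% in atrophy, 6.04% and 6.04% in recovery, and 13.1% and 12.1% in repeated atrophy, and the rescaled counts of each list stand against these. With the animal as a block 0 genes of the 6 lists were called in atrophy or recovery, where 0% and 0.0641% of all rows were, so that fit could hardly call any list there.

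Among 31 ERR and PGC-1 target genes of muscle, Esrra included, 0 were higher and 9 lower in atrophy (20.3% and 2.33% of all rows), 1 higher and 0 lower in recovery (4.4% and 3.33%), and 1 higher and 20 lower in repeated atrophy (28.1% and 6.24%). Their median log2 difference was -0.45, 0.20 and -0.73, beside 0.22, 0.02 and 0.20 over all rows. With the animal as a block these medians were -0.23, -0.16 and -0.61, beside 0.17, 0.08 and 0.20, so the sign in recovery turned. After TMM rescaling 0 were higher and 15 lower in atrophy, 0 of either in recovery, and 0 higher and 25 lower in repeated atrophy. With the animal as a block 2 were higher and 13 lower in repeated atrophy, where 21.5% and 5.66% of all rows were. Slc25a4, the adenine nucleotide carrier of the inner mitochondrial membrane, fell by 1.34 in repeated atrophy (adjusted p = 0.00064), from 4540 ± 792 CPM in control to 1770 ± 188, and was at 5420 ± 1260 in recovery. Idh3a, a subunit of the citric acid cycle's isocitrate dehydrogenase, fell by 0.93 (adjusted p = 0.001). Mb, the oxygen-binding myoglobin, was the 1 higher gene of the list in repeated atrophy, by 1.01 (adjusted p = 0.012), but not after TMM rescaling (0.63, adjusted p = 0.19). The 1 gene higher in recovery, named after its value was seen, was Sdhb of respiratory complex II (0.64, adjusted p = 0.03), a call lost after TMM rescaling (0.61, adjusted p = 0.081) and with the block (0.31, adjusted p = 0.38). From atrophy to recovery 14 of the 31 rose and 0 fell, where 3.34% of all rows rose and 14.5% fell. From recovery to repeated atrophy 0 rose and 20 fell, where 21% of all rows rose and 6.29% fell. With the block 0 of the list were called in either, but only 0.0143% and 0.0855% of all rows were, so that count says nothing about the list. The list medians for these 2 contrasts were 0.80 and -0.90, beside -0.19 and 0.18 over all rows. With the block they were smaller, at 0.16 and -0.42, beside -0.07 and 0.14. The 8 muscle fibre markers had a median of -0.80 in atrophy, 0.02 in recovery and -0.72 in repeated atrophy, and their part in the values of this list was not tested.

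**Figure D5:**
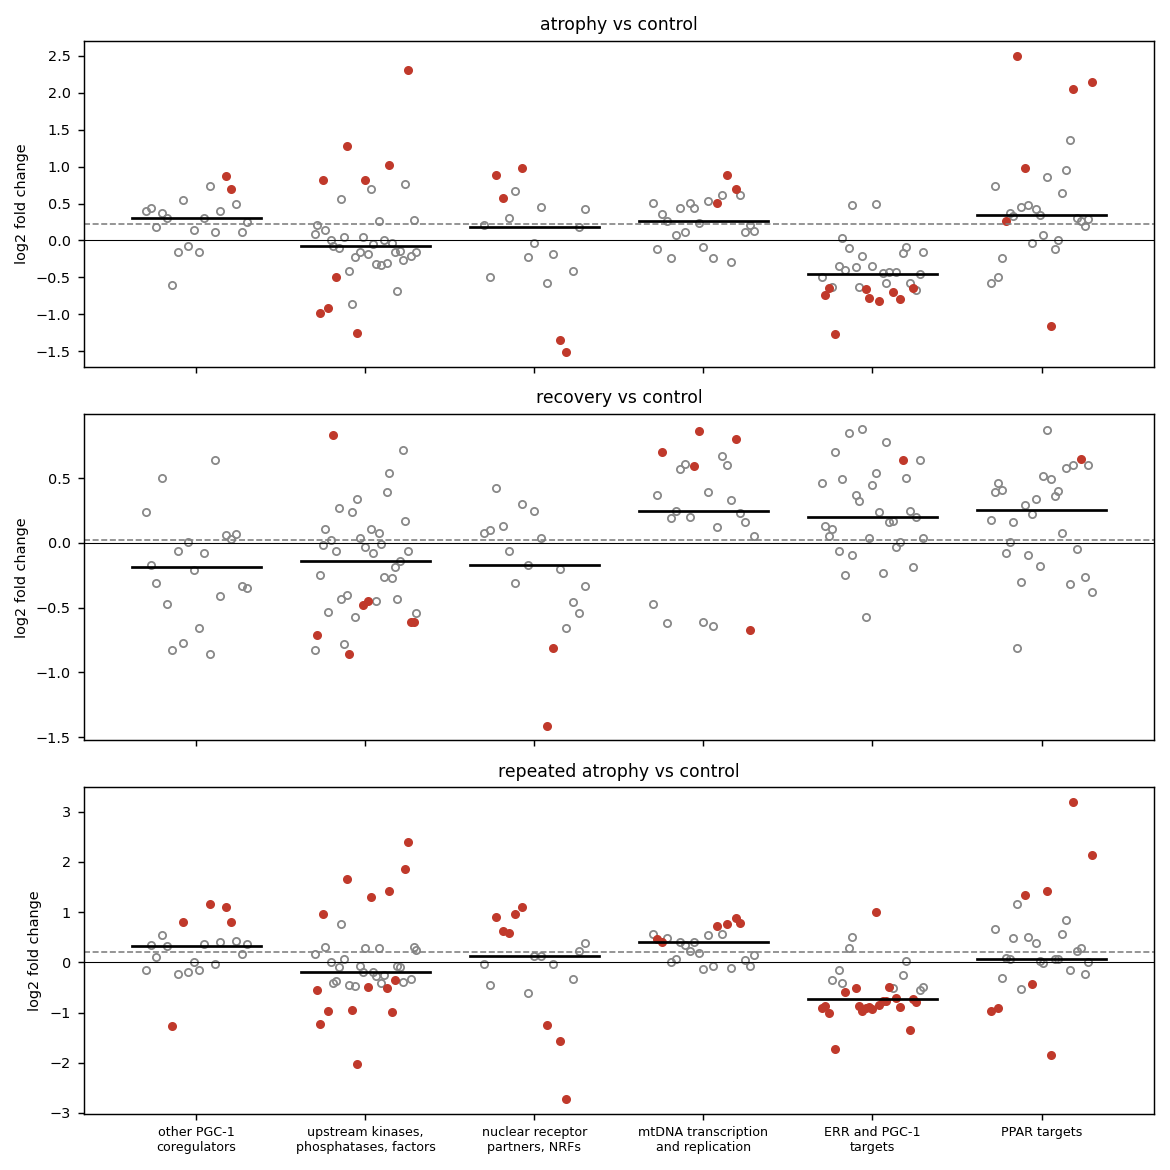
Log2 fold change of each gene of 6 lists (points) in atrophy, recovery and repeated atrophy against control, with filled points for genes called, open points for those not called, a bar at the list median and a dashed line at the median of all 14031 rows. The ERR and PGC-1 targets have their median at -0.73 in repeated atrophy, with 20 of 31 called lower and 1 higher.

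Of 28 PPAR targets tested, 5 were higher and 1 lower in atrophy (20.3% and 2.33% of all rows), 1 higher and 0 lower in recovery (4.4% and 3.33%), and 4 higher and 4 lower in repeated atrophy (28.1% and 6.24%). Their medians were 0.34, 0.25 and 0.07 beside 0.22, 0.02 and 0.20 over all rows. After TMM rescaling the counts were 1 higher and 2 lower in atrophy, 1 higher and 0 lower in recovery, and 4 higher and 5 lower in repeated atrophy, with medians of 0.00, 0.23 and -0.22. With the block 6 were higher and 3 lower in repeated atrophy. Plin2, which coats lipid droplets, rose by 3.19 in repeated atrophy (adjusted p = 3.7e-05), from 62.2 ± 19.5 to 555 ± 92.7 CPM. Hadh, a dehydrogenase of mitochondrial fatty acid oxidation, fell by 1.84 (adjusted p = 0.00025), from 158 ± 43.4 to 41.8 ± 0.762 CPM. Hadhb, of the trifunctional enzyme of the same pathway, was at 0.06 (adjusted p = 0.89).

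Of 23 genes for the transcription and replication of mitochondrial DNA, 3 were higher and 0 lower in atrophy (20.3% and 2.33% of all rows), 4 higher and 1 lower in recovery (4.4% and 3.33%), and 6 higher and 0 lower in repeated atrophy (28.1% and 6.24%). The shares higher in both disused groups were thus no greater than those of all rows. Their medians were 0.27, 0.25 and 0.40 beside 0.22, 0.02 and 0.20 over all rows. After TMM rescaling the split turned in atrophy, to 0 higher and 2 lower with a median of -0.06, stayed at 4 higher and 1 lower in recovery, and was 1 higher and 1 lower in repeated atrophy, with a median of 0.04. With the block 6 were higher and 0 lower in repeated atrophy, where 21.5% and 5.66% of all rows were. The block median there was 0.45 beside 0.20 over all rows. Tefm, the mitochondrial transcription elongation factor, rose by 0.89 in repeated atrophy (adjusted p = 0.00063) and by 0.80 in recovery (adjusted p = 0.0085). After rescaling these were 0.53 (adjusted p = 0.012) and 0.78 (adjusted p = 0.0035), and with the block the call in recovery was lost (0.77, adjusted p = 0.16). Rnaseh1, which removes RNA primers, rose by 0.73 (adjusted p = 0.0049) but not after rescaling (0.42, adjusted p = 0.058). Lrpprc, which stabilizes mitochondrial messenger RNA, was at 0.01 (adjusted p = 0.97). The 13 protein genes carried by mitochondrial DNA were not analysed here.

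Of 17 nuclear receptor partners and nuclear respiratory factors, 3 were higher and 2 lower in atrophy (20.3% and 2.33% of all rows), 0 higher and 2 lower in recovery (4.4% and 3.33%), and 5 higher and 3 lower in repeated atrophy (28.1% and 6.24%). After TMM rescaling these were 1 higher and 3 lower, 0 higher and 2 lower, and 2 higher and 5 lower. Medians were 0.18, -0.17 and 0.12 beside 0.22, 0.02 and 0.20 over all rows. Rescaled, they were -0.15, -0.20 and -0.15 beside 0.00, 0.01 and -0.01. With the block 4 were higher and 4 lower in repeated atrophy, where 21.5% and 5.66% of all rows were. Thra, thyroid hormone receptor alpha, fell by 2.72 in repeated atrophy (adjusted p = 4.4e-05), from 40.7 ± 11.3 to 6.05 ± 4.69 CPM. Nfe2l2, the antioxidant factor NRF2, rose by 1.11 (adjusted p = 0.00092), and Nfe2l1, its relative that induces proteasome genes, rose by 0.97 (adjusted p = 0.005). Both genes lowered in recovery, named after their values were seen, encode retinoid X receptors, the dimer partners of PPARs: Rxra (-1.41, adjusted p = 0.012) and Rxrb (-0.81, adjusted p = 0.022). Both calls were lost with the block (-1.21, adjusted p = 0.14, and -0.74, adjusted p = 0.12).

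Of 39 upstream kinases, phosphatases and transcription factors, 5 were higher and 4 lower in atrophy (20.3% and 2.33% of all rows), 1 higher and 6 lower in recovery (4.4% and 3.33%), and 6 higher and 9 lower in repeated atrophy (28.1% and 6.24%). After TMM rescaling these were 2 higher and 8 lower, 1 higher and 8 lower, and 6 higher and 16 lower. Medians were -0.07, -0.14 and -0.20 beside 0.22, 0.02 and 0.20 over all rows. Rescaled, they were -0.31, -0.16 and -0.47 beside 0.00, 0.01 and -0.01. With the block 6 were higher and 8 lower in repeated atrophy, where 21.5% and 5.66% of all rows were. Rcan1, a calcineurin inhibitor that is itself induced by calcineurin, rose by 2.39 in repeated atrophy (adjusted p = 7.6e-05), from 105 ± 31.3 to 577 ± 260 CPM. Map2k6, a kinase that activates p38, fell by 2.02 (adjusted p = 0.00068), from 45.2 ± 14.2 to 10.6 ± 5.09 CPM, and was at 54.1 ± 3.77 in recovery. Ppp3r1, the regulatory subunit of calcineurin, fell by 0.52 (adjusted p = 0.038, and 0.11 with the block). Of 20 other coregulators, 2 were higher and 0 lower in atrophy, 0 of either in recovery, and 4 higher and 1 lower in repeated atrophy, against the same shares of all rows. After TMM rescaling these were 1 higher and 1 lower, 0 higher and 2 lower, and 1 higher and 3 lower. Medians were 0.30, -0.19 and 0.34 beside the same all-row values. Rescaled, they were -0.03, -0.21 and -0.04. With the block 2 were higher and 1 lower in repeated atrophy, against the same block shares. Prmt1, an arginine methyltransferase that acts on PGC-1α, rose by 1.10 (adjusted p = 0.00065), and Lpin1, a phosphatidate phosphatase that also acts as a coactivator, fell by 1.27 (adjusted p = 0.0014). Smarcd3, a chromatin remodelling subunit, was at 0.16 (adjusted p = 0.31).

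The genes whose levels were most like those of Perm1 and Ppargc1a over the 18 libraries of the TTX animals are given as a description. These libraries share animals, groups and scaling, and 6705 rows of at least 10 CPM were compared. Highest for Perm1 were Slc25a4 (Pearson r = 0.975), Idh2 (0.973), Myl3 (0.969), Slc16a3 (0.965), Ldb3 (0.965), Tmem50b (0.964), Mgst3 (0.963) and Gpi (0.962), and lowest were Nars1 (-0.973), Tacc2 (-0.970) and Cap2 (-0.969). Highest for Ppargc1a were Nipsnap2 (0.963), Atp5mc1 (0.916), Mdh1 (0.908), Idh3a (0.903), Nnt (0.901), Samm50 (0.898), Dhrs11 (0.898) and Fitm2 (0.898), and lowest were Mapt (-0.905), Psmb3 (-0.901) and Pacsin3 (-0.899). Among the members, r with Perm1 was 0.863 for Ppargc1a and 0.688 for Esrra, between -0.457 and 0.368 for Ppara, Ppargc1b, Ppard, Esrrb, Nrf1 and Esrrg, and -0.80 for Tfam.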

How the data were processed

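The authors filtered contaminants with Bowtie2 2.2.5 and used STAR (genome rn7) within Partek Flow; annotation and counter are not given in the sources used here. Libraries were poly(A)-selected and directional. The deposited values are CPM per gene (each column sums to 1000000), although the study names a median of ratios normalization. Between 86.4% and 88.3% of low values were whole multiples of the inferred read (tolerance 0.02), so no count test was run. Of 14271 rows, 28 duplicates were dropped, and 3 columns without a sample record were not used.

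Values were log2(CPM + 1). Rows above 0 in at least 3 of the 18 libraries of TTX animals (14031) were fitted with limma 3.58.1 (R 4.3.3) with a trend, and p-values were Benjamini-Hochberg adjusted over all rows. A call needed a fold change of 1.2 or more with an adjusted p up to 0.05. Sham libraries were fitted separately. The fit was tested on simulated data. Alternatives were other scalings, pseudocounts, filters, control sets and the animal as a block: the labels give both limbs of an animal, whose deviations correlated at -0.304 to 0.493. Named genes were the 10 members, per list the 2 called genes of lowest adjusted p in repeated atrophy and the gene of highest mean CPM, and the 8 rows most and 3 least like Perm1 and Ppargc1a. Members, lists and rules were chosen with earlier results of these data known.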

Additional observations from a re-analysis of the deposited data

Results flagged for a closer look

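Among the control limbs, 1 stood apart for Esrrg: the right limb of atrophy animal 2, at 3.50 CPM, was separated from its neighbour by 0.60 of the group's range on the log2(CPM + 1) scale. For Ppara the right limb of repeated atrophy animal 1, at 0.460 CPM, was separated by 0.58 of the range on that scale. The 95% critical value of Dixon's ratio for 9 samples is 0.493, and chance passes it in about 1 in 20 groups, here with 10 groups looked at.

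For Ppargc1b the left minus right difference was above 0 in 3 of 3 atrophy animals and below 0 in 3 of 3 recovery animals, and the mean differed by -1.72 (log2, recovery minus atrophy). The sham animals, without TTX, were above 0 in 3 of 3 too, by 0.30 ± 0.25 beside 0.29 ± 0.36 in atrophy. Between the left limbs alone the difference was -0.14 (adjusted p = 0.87 by limma), and 0.11 after TMM rescaling, so the size of -1.72 rests on the right limbs, which were at 7.08 to 11.6 CPM in recovery and 1.01 to 4.2 in atrophy. The difference was picked for this pattern. The adjusted p of -1.72, with limbs blocked by animal, was 0.46.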

How the results depend on the processing

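Of the members called in atrophy (2 of 9), 1 was called after TMM or median of ratios rescaling, with 12 right limbs as control and with only the groups compared (the rescalings ended the call of Tfam, the other 2 settings that of Esrra), 2 after quantile normalization (Tfam lost and Ppard gained), and 0 with own right limbs, the fixed replicate block, or that block with TMM, while a random replicate block kept 2; leaving out 1 animal gave 0 to 3. In recovery (1 of 9), quantile normalization gave 2, own right limbs and both fixed block fits gave 0, the random block 1, and leaving out 1 animal gave 0 to 2. In repeated atrophy (4 of 9) the count stayed at 3 to 5 throughout, where the 3 at a mean of at least 10 CPM leave out Ppargc1a untested. Recovery against atrophy (0 of 9) gave 1 after either rescaling and 0 to 1 without 1 animal. Repeated atrophy against recovery (1 of 9) gave 0 with both fixed block fits and, by construction, 0 with a mean of at least 10 CPM, a filter that removes the called Ppargc1a before testing, 1 with the random block, 2 with only the groups compared, and 1 to 2 without 1 animal. Of the 12 ratios, 0 to 6 passed without 1 animal.

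Signs turned as follows. With own right limbs, the fixed block, and that block with TMM: Ppargc1b in atrophy 0.29, 0.29 and 0.08; in recovery Ppargc1a -0.10, -0.10 and -0.21 and Perm1 -0.27, -0.27 and -0.40; in repeated atrophy Esrrb -0.03, -0.03 and -0.04 and, in the first 2, Ppara 0.00. With TMM, median of ratios and quantile scaling: Nrf1 -0.25, -0.26 and -0.25 in atrophy and -0.19, -0.19 and -0.16 in repeated atrophy (block with TMM -0.16 and -0.14, and -0.03 in atrophy with 12 right limbs), and Esrrb 0.00, 0.00 and -0.01 in atrophy. Ppara in recovery was -0.11 with quantile scaling and -0.04 with the block and TMM. Leaving out 1 animal gave, in atrophy, -0.08 to 0.10 for Esrrb and -0.14 to 0.17 for Nrf1, in recovery -0.45 to 0.12 for Esrrg and -0.05 to 0.12 for Ppara, in repeated atrophy -0.06 to 0.07 for Esrrb, and for ratios in atrophy -0.37 to 0.45 (Ppargc1b to Ppargc1a) and -0.26 to 0.30 (Ppard to Ppara). None of the turned values that had a test was called. The causes were not tested.

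Rows called in atrophy ranged from 0 to 3314 over the settings that kept all animals (3171 as reported) and from 1, without atrophy animal 1, to 4841 when 1 animal was left out. The same ranges were 9 to 1698 and 184 to 1478 in recovery (1084), 2961 to 5042 and 2573 to 5254 in repeated atrophy (4812), 2 to 2624 and 398 to 3704 in recovery against atrophy (2505), 7 to 3933 and 1844 to 4253 in repeated atrophy against recovery (3823), and 0 to 18 and 0 to 36 in repeated against first atrophy (5). TMM moved the share of calls that were higher from 89.7%, 56.9% and 81.8% to 48.8%, 50% and 52.1% in atrophy, recovery and repeated atrophy. Groups of 3 animals, and levels of few reads for Ppara and Esrrb, limit all of these.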
